A study of Mus musculus with 2 samples.

Results

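Hepatic RNA from regenerating livers of male mice was sequenced as 1 library from wild type (WT) and 1 library from PPARβ-null (KO) mice, both C57BL/6. The sample labels give an age of 4 months, the growth protocol in the labels gives a range of 3 to 5 months, and the text of the study places collection at 48 hr after partial hepatectomy (PH), which both genotypes received. No source used here limits the PPARβ deficiency to the liver, and none says whether a library came from 1 mouse or a pool. With 1 library per genotype there was no replicate, no value carries an error between mice, and no test between the genotypes was possible. The file headers name a different sequencing lane for each library, so genotype, lane and mouse cannot be told apart.

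The loci described here are those of the cytosolic glutathione transferases (Gst), the UDP-glucuronosyltransferases (Ugt) and the sulfotransferases (Sult). The rule went by gene symbol, with Gst classes alpha, kappa, mu, omega, pi, theta and zeta, Ugt1 to Ugt3 and all Sult genes. It took loci whose estimate did not fail for excess data, and the choice was made with earlier results of these data known. The rule found 52 of the 38016 loci in the deposited table, 22 Gst, 13 Ugt and 17 Sult loci, which together name 59 genes. A locus is a row for which Cuffdiff gave 1 FPKM per library, and different loci can span the same stretch of the genome. FPKM counts fragments relative to exon length and to sequencing depth, so that levels of different genes can be compared per length.

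These enzymes carry out conjugation, the phase of hepatic detoxification in which a small polar group is attached to a drug, steroid, bile pigment or reactive lipid product. Gst enzymes add glutathione to electrophiles, Ugt enzymes of the endoplasmic reticulum add glucuronic acid from UDP-glucuronate, and Sult enzymes of the cytosol add sulfate from the donor PAPS. All 3 families grew by gene duplication, and many of their genes lie side by side as near-identical copies.

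In regenerating KO livers all expressed glutathione transferase loci of the alpha and pi classes and 3 of the 6 of the mu class were at least 2-fold lower than in regenerating WT livers, Sult1a1 was lower as well, and most of the Ugt genes differed little. Of the 52 loci, 33 had a mean FPKM of at least 1 over both libraries and were counted as expressed. At least 2-fold lower in KO, on the scale of log2(FPKM + 0.1), were 11 of these 33, against 8.44% of all 11046 expressed loci with a symbol. At least 2-fold higher in KO were 0 of the 33, against 1.72% of all expressed loci. Among the 11 loci were 9 of the 18 expressed Gst loci, 1 of the 10 expressed Ugt loci and 1 of the 5 expressed Sult loci. The median log2 KO/WT was -1.17 for Gst, -0.51 for Sult and -0.26 for Ugt, where the median of all expressed loci was -0.24. Lower in KO by any amount were 29 of the 33, beside 75.6% of all expressed loci.

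**Figure D1:**
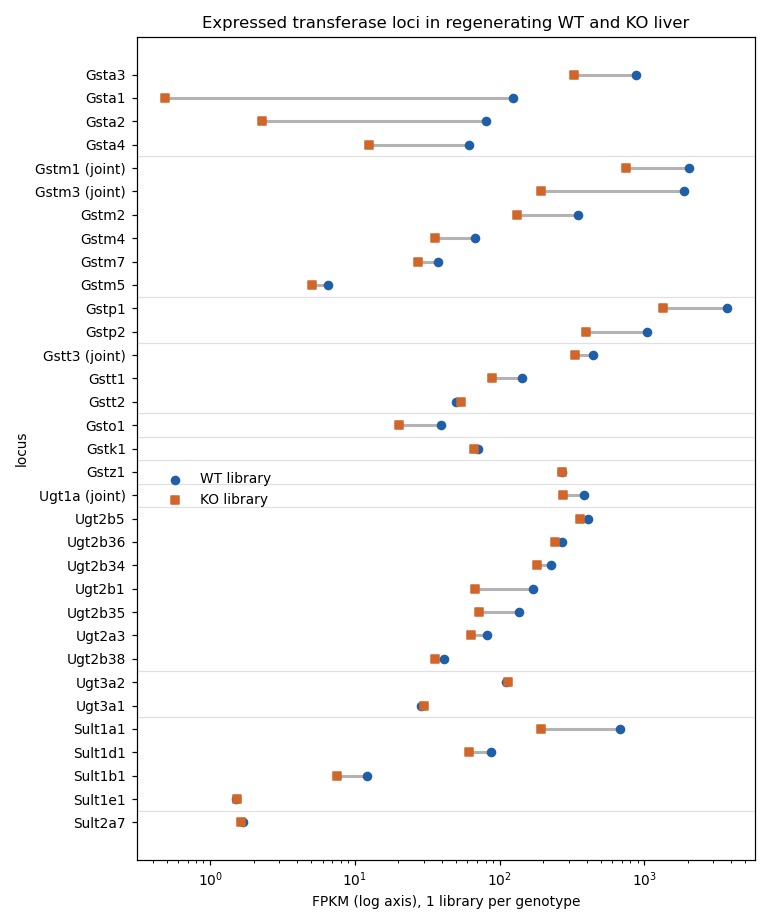
FPKM (log axis) of the 33 expressed Gst, Ugt and Sult loci, with 1 circle for the WT and 1 square for the KO library, grouped by class. The widest gaps are those of Gsta1 (123 in WT and 0.485 in KO), Gsta2 (80.9 and 2.28) and the joint locus of Gstm3 (1872 and 195), while the points of Gstz1 (272 and 269.8) lie on each other.

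Since most genes were somewhat lower in KO, each difference was also read relative to the median of all expressed loci. After this centring the same 11 loci stayed past the 2-fold line, beside 5.91% of all expressed loci, and 6 loci with small differences changed sign, namely Gstk1, Gstz1, Ugt2b36, Ugt2b38, Ugt2b5 and Sult2a7. Ppard itself, the targeted gene, had an FPKM of 2.67 in WT against 2.42 in KO, so the level over its whole locus did not separate the libraries. Its WT/KO ratio of 1.10 had a 95% counting interval of 0.965 to 1.26. Such intervals come from fragment numbers estimated from FPKM, transcript length and depth, where an FPKM of 1 on a transcript of 1 kb equalled about 53.1 WT fragments or 54.1 KO fragments, and they cover counting error only.

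Hepatocyte markers were abundant in both libraries, as in liver tissue, and 0 of the 7 passed 2-fold in either direction. Their summed FPKM was 21182 in WT and 27275 in KO. Fga (2531 and 4851) and Fgb (2698 and 4534) differed most, and Ttr (2503 and 2406) was lower in KO. Of other liver cells, summed FPKM in WT and KO was 33.7 and 9.75 for 5 stellate cell genes, 52.8 and 33.8 for 6 macrophage genes, 43.8 and 31.99 for 5 endothelial genes, and 29.8 and 25.7 for 6 cholangiocyte genes. The cholangiocyte sums differed by no more than the median of all expressed loci, and the macrophage gene Marco was higher in KO, at 6.58 and 7.37. Past 2-fold were 3 of the stellate genes, Col1a1, Col3a1 and Acta2, and 1 gene each of the macrophage (Csf1r), endothelial (Lyve1) and cholangiocyte (Krt19) lists. The neutrophil genes, of which Ly6g and Mpo were listed at 0 in both libraries, summed to 12.9 and 6.91, and the 5 erythroid genes to 295 and 252. The erythroid gene Alas2 was higher in KO, at 20.6 and 37.5, while Hba-a1 had 139 and 113 and Hbb-b1 had 136 and 102. The 5 lymphocyte and the 5 pancreatic acinar genes each had 0 members with a mean FPKM of at least 1, with sums of 0.407 and 0.343 and of 0.394 and 0.0798, and the acinar genes Cpa1, Prss2 and Pnlip were listed at 0 in both. In bulk tissue, fewer cells of a type and less RNA per cell cannot be told apart, and the part of these cells in the transferase values was not tested.

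The alpha class had the lowest median log2 KO/WT of the Gst classes, at -3.69, and its summed FPKM gave a WT/KO ratio of 3.32, below the 3.84 of the mu class. These enzymes conjugate products of lipid peroxidation and reduce organic hydroperoxides. All 4 loci were expressed and all were at least 2-fold lower in KO. Gsta1 (chromosome 9, 78078463 to 78090491 on NCBIM37, plus strand) had an FPKM of 123 in WT against 0.485 in KO. Its WT/KO ratio was 254 with a 95% counting interval of 169 to 399.8, from about 5716 and 23.0 fragments. Gsta2 (chromosome 9, 78178825 to 78203595, minus strand) had 80.9 in WT against 2.28 in KO, giving a ratio of 35.4 with an interval of 29.3 to 43.5. Gsta4 (chromosome 9, 78039773 to 78057155), whose enzyme is known for the conjugation of 4-hydroxynonenal, had 61.97 in WT against 12.5 in KO, giving a ratio of 4.96 with an interval of 4.55 to 5.40. Gsta3 was the most abundant of the class in both libraries and lies apart from the others, on chromosome 1 (21230670 to 21255442). Its enzyme detoxifies the epoxide of aflatoxin B1 in mice, and its FPKM was 871 in WT and 327 in KO, 2.66-fold lower in KO. Gsta3 held 7.71% of the summed Gst FPKM in WT and 8.05% in KO, whereas the share of Gsta1 went from 1.09% to 0.0119%.

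Gsta1 and Gsta2 are close copies. Their coding sequences were 97.5% identical in an alignment of 672 bases. Of the read-length windows of 100 bases in the Gsta1 transcript, 81.8% occurred without a mismatch in a transcript of another gene, and of those of Gsta2 35.0%. To show how alike they are, 2 stretches are printed. The first is the coding sequence from base 568 to base 667 of ENSMUST00000098537 (Gsta1) and ENSMUST00000034902 (Gsta2), where the pair differs most. Capitals mark the 6 bases at which they differ.
Gsta1: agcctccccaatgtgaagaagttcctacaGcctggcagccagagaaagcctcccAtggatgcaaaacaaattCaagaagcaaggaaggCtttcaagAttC
Gsta2: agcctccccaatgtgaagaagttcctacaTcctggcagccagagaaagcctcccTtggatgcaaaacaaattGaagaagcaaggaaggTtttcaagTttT
Over coding bases 1 to 100, by contrast, both transcripts hold the same sequence, with 0 differences.
Gsta1 and Gsta2: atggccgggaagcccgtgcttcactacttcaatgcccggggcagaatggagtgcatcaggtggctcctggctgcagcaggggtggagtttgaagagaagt

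The other genes sharing windows with Gsta1 and Gsta2 were Gm3776 and Gm10639, annotated between them on chromosome 9. Gm3776 (78104949 to 78116973) had an FPKM of 114 in WT against 0.290 in KO. Gm10639 (78137730 to 78153332) had 21.8 in WT and 0.208 in KO. The summed FPKM of Gsta1, Gsta2, Gm3776 and Gm10639 was 339.8 in WT against 3.26 in KO, giving a WT/KO ratio of 104. All 4 copies were low in the KO library. How reads that match several copies were shared out is not given in the sources used here, and its part in these values was not tested. Among the 11046 expressed loci, ordered from the lowest KO/WT, Gm3776 ranked 1, Gsta1 ranked 2, Gm10639 ranked 19 and Gsta2 ranked 43.

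Loci beside the gene cluster lacked a difference of this size. The nearest expressed neighbours before it, Ick and C920006O11Rik, had a log2 KO/WT of 0.07 and -0.30, and those after it, Mto1 and the row of Eef1a1, had -0.21 and -0.25, near the median of all expressed loci. These neighbours lay 13.1 to 123 kb away. Within the cluster the values were -2.30 for Gsta4, -7.72 for Gsta1, -8.19 for Gm3776, -6.15 for Gm10639 and -5.09 for Gsta2.

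**Figure D2:**
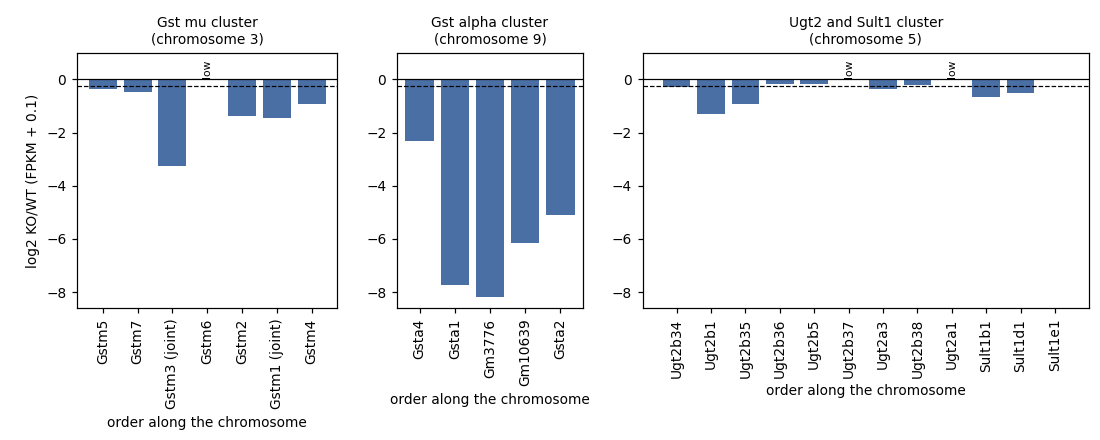
Log2 KO/WT of FPKM (pseudocount 0.1) for the loci of the Gst mu cluster, the Gst alpha cluster and the Ugt2 and Sult1 cluster, in their order along chromosomes 3, 9 and 5. The dashed line is the median of all expressed loci (-0.24), and loci with a mean FPKM below 1 are marked low and have no bar. Every bar of the alpha cluster is at -2.30 or lower, the mu cluster is uneven with Gstm3 at -3.26, and in the chromosome 5 cluster Ugt2b1 is at -1.32.

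The likeness of Gsta1 and Gsta2 extends into their promoters. Windows from 250 bases before to 50 bases after the start of each gene, as RefSeq gives them on GRCm38.p6, were 78.4% identical over an alignment of 287 bases. They are printed because both genes were low in the same library, with the aligned identical bases in capitals. The Gsta1 window is chr9:78230419-78230718 on the plus strand and the Gsta2 window chr9:78347096-78347395 on the minus strand.
Gsta1 promoter: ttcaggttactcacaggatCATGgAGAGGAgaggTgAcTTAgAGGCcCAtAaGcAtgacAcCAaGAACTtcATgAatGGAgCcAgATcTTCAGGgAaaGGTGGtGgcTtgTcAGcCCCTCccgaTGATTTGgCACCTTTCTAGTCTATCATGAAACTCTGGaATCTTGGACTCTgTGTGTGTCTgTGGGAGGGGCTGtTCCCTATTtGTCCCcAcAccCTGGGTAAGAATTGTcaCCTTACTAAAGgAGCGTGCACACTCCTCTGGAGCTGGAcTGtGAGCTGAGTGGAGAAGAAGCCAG
Gsta2 promoter: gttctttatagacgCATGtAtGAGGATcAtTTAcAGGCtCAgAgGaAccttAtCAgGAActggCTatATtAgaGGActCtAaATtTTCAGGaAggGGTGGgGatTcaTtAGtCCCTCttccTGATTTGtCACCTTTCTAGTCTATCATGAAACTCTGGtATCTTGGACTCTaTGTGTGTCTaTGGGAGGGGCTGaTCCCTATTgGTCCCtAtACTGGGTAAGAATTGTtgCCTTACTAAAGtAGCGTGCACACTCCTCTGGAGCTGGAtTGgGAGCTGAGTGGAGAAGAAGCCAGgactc
The antioxidant response element, searched as TGACNNNGC on both strands, is the DNA motif through which the stress regulator NRF2 acts on many Gst genes. It occurred in 12.4% of all 32851 promoter windows and in 3 of the 60 windows found for 50 of the 59 member genes. Those 3 belonged to Gsta3, Gstm5 and Gstm7. Neither printed window holds these letters, which says nothing about bases farther upstream.

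The mu class, whose enzymes conjugate epoxides and other electrophiles, differed unevenly along its cluster on chromosome 3. Summed over its 8 loci, FPKM was 4366 in WT against 1137 in KO, giving a ratio of 3.84. Gstm3 was widest apart, with 1872 in WT against 195 in KO, giving a ratio of 9.61. Its row is a joint one that also names Gstm6 and Gm12494 (107741765 to 107772201, minus strand), so the value belongs to the joint row and not to Gstm3 alone. Gstm6 also has a row of its own at the same place, with 0.210 in WT and 0.138 in KO. Gstm1, in a row shared with Gm12498, had 2034 in WT and 742 in KO, 2.74-fold lower in KO. Gstm2 had 347 in WT and 132 in KO, 2.63-fold lower. Gstm4 came just short of the line, with 67.8 in WT and 35.5 in KO.

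Gstm7 and Gstm5 stood nearest to equal levels within the mu class. Gstm7 had 37.7 in WT against 27.3 in KO, giving a ratio of 1.38, and Gstm5 had 6.53 and 5.08, a ratio of 1.29 with a counting interval of 1.10 to 1.503. Gstm5 and Gstm7 lie at one end of the cluster, and Gstm3, Gstm2, Gstm1 and Gstm4 follow. The nearest expressed loci outside it, Csf1 and Ampd2, had a log2 KO/WT of -0.76 and -0.03. Shared read-length windows were few here, at 1.55% for the Gstm3 row, 1.68% for the Gstm1 row and 2.41% for the separate Gstm6 row. Genes named in the same row were not compared. How far aligned reads tell the copies of this cluster apart was not tested. Gstm2-ps1, a locus of this class on chromosome 5, had about 2.33 fragments in WT and 1.18 in KO.

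The pi class held the most abundant Gst transcript of both libraries. Gstp1 (chromosome 19, 4035411 to 4037921, minus strand), whose protein is plentiful in the liver of male mice, had an FPKM of 3734 in WT against 1355 in KO. Its ratio was 2.75 with a counting interval of 2.73 to 2.78. Its neighbour Gstp2 had 1047 in WT against 399 in KO, giving a ratio of 2.62. The pair is 98.1% identical in coding sequence, and 57.3% of the read-length windows of Gstp1 also occurred in Gstp2, so the split between these genes is uncertain. Their summed FPKM was 4780.4 in WT against 1754 in KO, giving a ratio of 2.72. Coding bases 1 to 100 of ENSMUST00000169613 (Gstp1) and ENSMUST00000042700 (Gstp2) show the pair where it differs most, with the 6 differing bases in capitals.
Gstp1: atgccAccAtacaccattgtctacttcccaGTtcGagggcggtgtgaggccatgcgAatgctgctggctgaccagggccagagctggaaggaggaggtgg
Gstp2: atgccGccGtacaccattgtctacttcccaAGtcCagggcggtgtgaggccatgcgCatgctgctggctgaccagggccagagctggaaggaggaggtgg
Gstp1 made up 33.0% of the summed Gst FPKM in WT and 33.4% in KO.

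The remaining Gst classes differed less, and 0 of their loci passed 2-fold. In the theta class, which acts on small halogenated compounds, Gstt1 had 144 in WT against 88.7 in KO, giving a ratio of 1.62. Gstt2 had 49.7 in WT and 53.8 in KO and was the single expressed Gst locus with a higher value in KO. The row of Gstt3 also names Ddt, and this joint locus had 443 in WT and 331 in KO. Gsto1, a thioltransferase that also reduces dehydroascorbate, had 39.3 in WT against 20.3 in KO, giving a ratio of 1.93 that lay just inside the 2-fold line. Gstk1, found in mitochondria and peroxisomes, had 70.5 and 67.1. Gstz1, the maleylacetoacetate isomerase of tyrosine breakdown, had 272 and 269.8, a ratio of 1.01 with a counting interval of 0.991 to 1.03. Gsto2 was low, at 0.152 in WT and 0.0846 in KO, and Gstt4 was listed at 0 in both libraries.

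**Figure D3:**
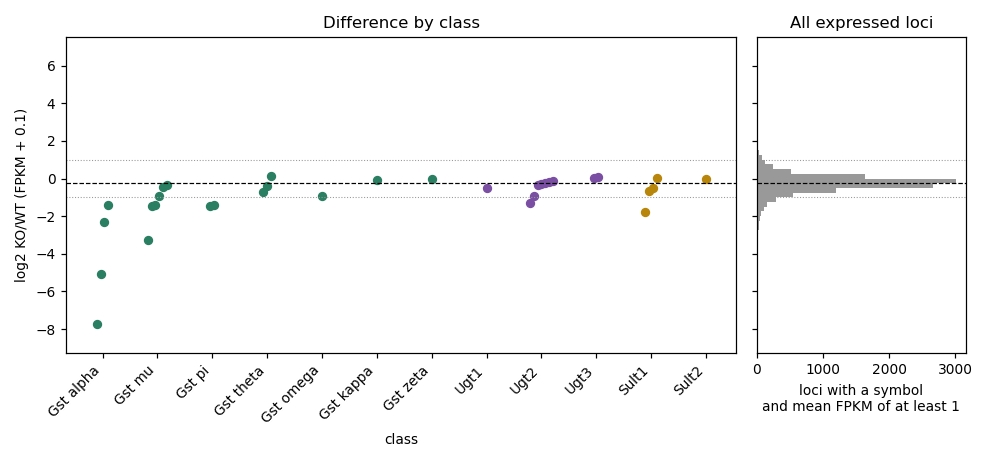
Log2 KO/WT of FPKM (pseudocount 0.1) for each expressed locus by class (left), beside a histogram of all 11046 expressed loci with a symbol (right). Dotted lines mark 2-fold in each direction and the dashed line the median of all expressed loci (-0.24). All alpha and pi loci lie below the lower dotted line, and the loci of Gst kappa, Gst zeta and Ugt3 lie above the dashed line.

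Across the whole family, summed Gst FPKM was 11302 in WT against 4064 in KO, giving a ratio of 2.78. The alpha class contributed 1137 in WT and 342 in KO to these sums, and the theta class 637 and 473. Gstz1, nearly level between the libraries, held 6.64% of the Gst sum in KO, beside 2.41% in WT.

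**Figure D4:**
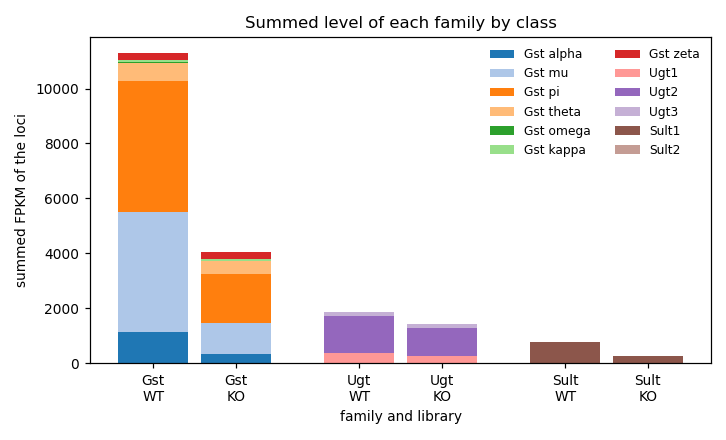
Summed FPKM of the Gst, Ugt and Sult loci in the WT and KO libraries, with the classes stacked. The Gst bar is 11302 in WT and 4064 in KO, the Ugt bar 1857 and 1442, and the Sult bar 779 and 266.

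The glucuronosyltransferases stayed much closer together. Their summed FPKM was 1857 in WT against 1442 in KO, giving a ratio of 1.29. Ugt2b1 (chromosome 5, 87345663 to 87355555, minus strand) was the 1 locus past the line, with 169 in WT and 67.8 in KO. Its ratio was 2.50 with a counting interval of 2.44 to 2.56. Ugt2b35 had 136 in WT against 72.4 in KO, giving a ratio of 1.88. Genes of the Ugt2b group glucuronidate steroids, bile acids and many drugs.

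The other expressed Ugt2 loci of the same cluster had WT/KO ratios from 1.11 to 1.29. Ugt2b5, the most abundant Ugt2 locus, had 409 in WT and 359 in KO. Ugt2b36 had 270.1 in WT and 242 in KO, and Ugt2b34, which lies next to Ugt2b1, had 226 and 183. Ugt2a3 had 81.3 and 63.1, and Ugt2b38 had 41.3 and 35.7. Ugt2b5 and Ugt2b38 shared 24.3% and 24.2% of their read-length windows with other genes, chiefly with each other, and no window of Ugt2b1 or Ugt2b35 occurred in another gene. Ugt2b37 fell below the filter with 0.969 in WT and 0.587 in KO, and Ugt2a1 had about 2.56 fragments in WT and was listed at 0 in KO.

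The Ugt1 complex on chromosome 1 (89951963 to 90121904) makes its enzymes by joining alternative first exons to a common set of later exons. Ugt1a1, the enzyme that conjugates bilirubin, is among the 9 genes named in its joint row. The row had an FPKM of 383 in WT against 274 in KO, a ratio of 1.40, and the levels of single Ugt1a genes were not analysed here. Another row that names Ugt1a7c alone was listed at 0 in both libraries. The Ugt3 enzymes use other UDP-sugars as donors, and both loci were nearly level. Ugt3a2 had 112 in WT and 115 in KO, and Ugt3a1 had 28.5 and 29.9.

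Among the sulfotransferases, Sult1a1 made up most of the family sum and was far lower in KO. This enzyme sulfates phenols and phenolic drugs. Its locus (chromosome 7, 133792737 to 133819946) is wider than the annotated gene and had an FPKM of 676 in WT against 194 in KO. The ratio was 3.49 with a counting interval of 3.42 to 3.55. It held 86.8% of the summed Sult FPKM in WT and 72.9% in KO. None of its read-length windows occurred in another gene.

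The other Sult1 genes lie in the chromosome 5 cluster behind the Ugt2 genes or on chromosome 17. Sult1d1, which acts on catecholamines and other amines, had 87.0 in WT against 61.1 in KO, giving a ratio of 1.42. Sult1b1, which sulfates thyroid hormones, had 12.1 and 7.55, a ratio of 1.60. The oestrogen sulfotransferase Sult1e1 had 1.52 in WT against 1.54 in KO, giving a ratio of 0.988 with a counting interval of 0.738 to 1.3005, so a difference was not detectable at this depth. Sult1c2 was below the filter, with 0.524 in WT and 0.183 in KO, from about 51.3 and 18.2 fragments. Its ratio of 2.87 had a counting interval of 1.66 to 5.25.

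Genes of the Sult2a group, which sulfate bile acids and steroids and are high in female mice, were barely detected. Of 8 Sult2 loci, 1 was expressed, with 1.69 in WT and 1.63 in KO, and no protein-coding Sult2 locus passed the filter. The expressed locus, Sult2a7, is annotated as a pseudogene, and its read-length windows were not examined. Its counting interval of 0.737 to 1.45 for the WT/KO ratio included equal levels. Sult2a2 had about 6.97 fragments in WT and was listed at 0 in KO. A floor of 3 fragments in KO would give a WT/KO ratio of 2.37. The counting interval of Sult2a2 reached down to a ratio of 1.47 and had no upper limit. Of its read-length windows, 35.9% also occurred in Sult2a5, Sult2a1 or Sult2a4. Sult2a1, Sult2a3, Sult2a4, Sult2a5 and Sult2a6 were listed at 0 in both libraries, as were Sult1c1, Gstt4 and the Ugt1a7c row. For these 8 loci, 3 fragments would have given an FPKM of 0.0172 to 0.0587. Sult2b1, Sult3a1, Sult4a1 and Sult6b1 each rested on at most about 2.08 fragments in either library.

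The co-substrates of the 3 families come from separate routes, and the genes of these routes were read as lists. The lists also hold related genes that do not supply the co-substrate, such as those that use it or break it down. The counts of these and the following lists stand beside 8.44% of all expressed loci at least 2-fold lower and 1.72% at least 2-fold higher in KO, and in lists this short a single lower gene is about as much as that background gives. Of 13 expressed genes of glutathione supply, recycling and breakdown, 3 were at least 2-fold lower and 0 at least 2-fold higher. Their median log2 KO/WT was -0.32. Ggt6 counted among the 13 through a joint row that also names Mybbp1a. Cth, which releases cysteine from cystathionine, had 667 in WT and 136 in KO. Gls2, the glutaminase of liver, had 188 and 64.5, and Ggct, which acts on gamma-glutamyl peptides, had 4.31 and 1.73. Gclc, the catalytic subunit of the enzyme that begins glutathione synthesis, had 92.9 in WT and 55.1 in KO. Slc25a39 (314 and 252) and Cbs (189 and 240.3) were the other most abundant genes of the list.

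Of the 7 genes of the UDP-glucuronate list, in which Gusb, Uxs1 and Nmnat1 do not supply it, 1 was past 2-fold, and the median was -0.41. Ugdh, which makes UDP-glucuronate from UDP-glucose, had 201 in WT and 81.4 in KO. Ugp2 had 104 and 94.4, and the transporter Slc35b1 had 48.1 and 56.3. Of the 8 genes with a row in the list for PAPS and related steps, 1 was past 2-fold, and the median was -0.19. Papss2, which makes PAPS, had 67.0 in WT and 31.7 in KO. The sulfite oxidase Suox had 52.7 and 58.3, and the sulfate transporter Slc26a1 had 50.4 and 51.5.

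Transferases outside the 3 families gave another reference. Of 15 expressed genes of microsomal Gst and other conjugating enzymes, 1 was at least 2-fold lower, Gstcd with 3.26 in WT and 1.4985 in KO, and the median was -0.35. Mgst1, a membrane-bound glutathione transferase unrelated in sequence to the cytosolic ones, had 3392 in WT and 3635 in KO. Nnmt had 290.3 and 355.

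**Figure D5:**
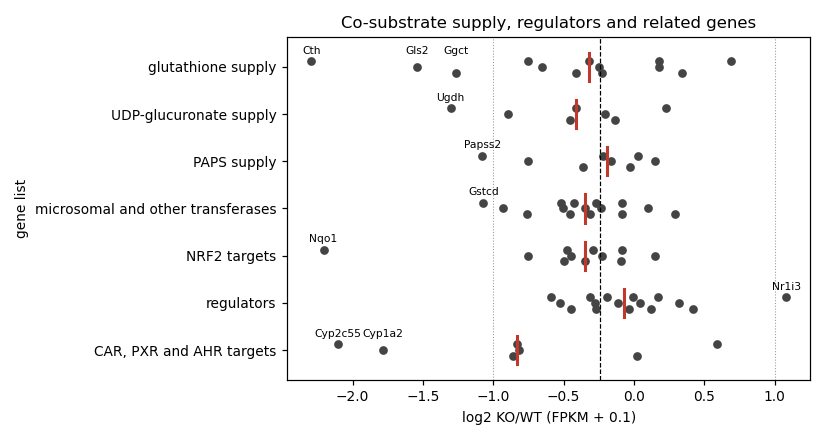
Log2 KO/WT of FPKM (pseudocount 0.1) for the expressed genes of 7 lists, with 1 point per gene and the median of each list as a red bar. Genes past 2-fold are named, dotted lines mark 2-fold and the dashed line is the median of all expressed loci (-0.24). Cth, Gls2 and Ggct lie below the line in the glutathione list, Nqo1 (13.1 in WT and 2.77 in KO) in the list of NRF2 targets, and Nr1i3 is the 1 gene above 2-fold.

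Genes that NRF2 is known to induce were read in the same way. The list of 14 genes holds no Gst, Ugt or Sult gene, so its counts leave out the Gst loci described above. Of its 11 expressed genes, 1 was at least 2-fold lower, a share near the 8.44% of all expressed loci, and the median was -0.34. The genes of the list below the filter had lower values in KO. Nqo1, a quinone reductase, had 13.1 in WT against 2.77 in KO, giving a ratio of 4.75. Ephx1 had 251 and 184, and Osgin1 177 and 165.

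Of 16 expressed regulators of these enzymes, 0 were at least 2-fold lower and 1 was at least 2-fold higher in KO, and the median was -0.07. That gene was Nr1i3, which encodes the xenobiotic receptor CAR, with 35.6 in WT and 75.6 in KO. Nfe2l2, the gene of NRF2, had 29.9 and 19.9, and its inhibitor Keap1 had 15.8 and 11.6, a pair named here after their values were seen. Hnf4a had 172 and 193, Rxra 91.2 and 114, and the joint row naming Mafg 196 and 162. Of the 7 expressed targets of CAR, PXR and AHR, mostly P450 genes, 2 were at least 2-fold lower, with a median of -0.83. Cyp2c55 had 31.2 in WT and 7.19 in KO, and Cyp1a2 had 488 and 142. Cyp3a11 had 3926 and 2202, and the P450 reductase Por had 181 and 272.

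Several of these transferases differ between the sexes in mice, and both libraries were labelled male. Of 14 male-biased liver genes, 2 were lower and 2 higher in KO past 2-fold, with a median of -0.04. Mup20 had 3221 in WT and 370.3 in KO and Nudt7 had 217 and 97.3, while Elovl3 had 41.5 and 217 and Cyp4a12a 48.5 and 123. Mup3 (3022 and 3322) and Cyp2d9 (378 and 542) were within 2-fold. Of 15 female-biased genes, 5 were expressed and 0 of them passed 2-fold, and the highest of these were Cyp17a1 (10.3 and 15.7), Cyp2a4 (13.4 and 7.04) and Fmo2 (3.02 and 1.86).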

How the data were processed

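Per the labels and the study's methods, the authors aligned reads of 1 WT and 1 KO liver library to NCBI37 (mm9) with TopHat 2.0.0, assembled transcripts with Cufflinks 1.3.0 and estimated FPKM per locus with Cuffdiff. The methods name single end reads and the labels paired end reads of 100 bases. The deposited table also holds the authors' own fold changes, statistics, p-values and q-values, which were not used. How reads with several matches were shared out is not given in the sources used here.

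The 21 loci marked HIDATA, listed at 0, and 2302 loci without a symbol were left out. Log2 ratios were taken after adding 0.1 to each FPKM, so small values give smaller log2 ratios, and printed ratios are of FPKM as deposited. Expressed means a mean FPKM of at least 1. Fragment numbers were estimated from the multiples at which low values of single-exon genes piled up and from the longest transcript of each gene in GENCODE vM1 (NCBIM37). Intervals of ratios are 95% Clopper-Pearson. Shared windows are exact matches of 100 bases between coding transcripts of that annotation, leaving out genes named in the same row. Coordinates are counted from 1, and 32 of the 52 loci start and end as the annotated gene. All expressed members were named, and of each pathway list the 3 most abundant genes and those past 2-fold, with 1 pair of exceptions that the text marks and 1 gene that is not reported here. Loci and lists were chosen with earlier results of these data known. The log2 ratios, the 2-fold line, the depth estimate and the intervals were tested on simulated counts. There the intervals were given the counts themselves, not counts estimated from FPKM. The sequence and list steps were not tested in this way. Scripts ran in Python 3.11.15 with Biopython 1.88, scipy 1.17.1, numpy 2.4.6, pandas 2.3.3 and matplotlib 3.10.9. Alternatives covered pseudocount, filter, scaling, fold, joint rows and copies.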

Additional observations from a re-analysis of the deposited data

How the results depend on the processing

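The count of 11 of 33 loci at least 2-fold lower in KO was 5 of 33 with a line at 3-fold, beside 3.88% of all expressed loci. It was 7 of 26 without the members of which more than 10% of read-length windows occurred in another gene. This took out 7 expressed loci, Gsta1, Gsta2, Gstp1 and Gstp2 among them. The share beside it stays 8.44% of all expressed loci, from which no copies were taken out. The other 11 alternatives gave between 9 and 16. The 9 were of 29 loci, without joint rows, beside 8.62%. The 16 were of 33 loci, with a line at 1.5-fold, beside 19.4%. The count of loci higher in KO was 0 under all 13 alternatives, beside 0.579% to 3.97% of all loci at the same fold, filter and scaling. Over 11 alternatives the median log2 KO/WT ran from -1.39 to -0.93 for Gst, from -1.15 to -0.20 for Sult and from -0.33 to -0.02 for Ugt, with the Ugt value nearest 0 after centring on all expressed loci. No leave-one-out analysis was possible, since each genotype had 1 library. No paired analysis was possible because each genotype had a single library and the labels carry no pairing. Depth limited the values of the loci with few fragments, chiefly those of the Sult2 genes.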
